A study of Mus musculus with 9 samples.

Results

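The TGF-beta and BMP pathway genes were examined in mouse RNA-seq libraries as a set of 45 genes chosen by name, which covers ligands, latent binding proteins, receptors, secreted antagonists, Smads, their regulators and the Id genes. All 45 were present among the 19240 genes of the table, and 44 were tested because their FPKM averaged 0.5 or more over the 9 libraries. FPKM divide a gene's fragments by its transcript length and by its library's total, so that levels of different genes can be compared per length. The gene left out of the test was Bmp6, a BMP ligand, which lay between 0 and 0.09 FPKM.

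TGF-beta family ligands are secreted dimers that bind pairs of type I and type II receptor kinases. TGF-beta is first held in an inactive complex with latent TGF-beta binding proteins in the matrix. TGF-beta and activin receptors phosphorylate Smad2 and Smad3, BMP receptors phosphorylate Smad1, Smad5 and Smad9, and the phosphorylated Smads act in the nucleus together with Smad4. Secreted antagonists trap the ligands, and inhibitory Smads, Smurf ubiquitin ligases and the corepressors Ski and Skil restrain the signal inside the cell. In fibroblasts TGF-beta is known for inducing matrix and contractile genes, and BMP for inducing the Id genes.

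The 9 libraries form groups of 3. They were labelled as overexpressing S100A8, which binds calcium and forms a heterodimer with S100A9, with a point mutation at residue 69 (OEA8_69), as overexpressing it with a point mutation at residue 67 (OEA8_67), and as an overexpression control (OEA8_Ctrl). What the control cells overexpressed is not spelled out in the labels, while in the study the reference cells overexpress S100A8 from a lentivirus under puromycin selection. The labels name hematopoietic stem cells, while the study describes the mutated cells as mouse embryonic fibroblasts. Whether replicate libraries started from different cultures is stated in neither source, so that the spread behind each p-value may be technical.

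S100a8 itself averaged 5.14 ± 1.27 FPKM in OEA8_69, 5.58 ± 0.909 FPKM in OEA8_67 and 4.69 ± 1.13 FPKM in OEA8_Ctrl (SD, n = 3 each), with no test passed between groups, and the single value per gene does not separate mutated from unmutated transcripts. The median fibroblast marker averaged 164 FPKM, and 13 of 14 reached 1 FPKM. Of 17 hematopoietic stem and progenitor markers 7 averaged at least 1 FPKM and 9 were under 0.1 FPKM, and Ptprc and Kit, which define blood cells and their progenitors, averaged 0.00444 FPKM each. The markers thus went against the labelled cell type. The 17 genes summed to 230 to 240 FPKM in OEA8_69, 218 to 231 FPKM in OEA8_67 and 335 to 354 FPKM in OEA8_Ctrl, mostly from Ly6a, Gata2 and Cd34. The values of a library summed to between 469909 and 501342 FPKM, pairs of libraries within a group had r of 0.995 to 0.997 across genes, pairs between groups had r of 0.991 to 0.996, and read depth is unknown because the files give no counts. Summed levels of 19 interferon-stimulated genes ranged between 363 and 800 FPKM in OEA8_69, between 470 and 917 FPKM in OEA8_67 and between 920 and 1143 FPKM in OEA8_Ctrl, and their part in the results was not tested. In these bulk libraries, fewer cells of a type and less RNA per cell cannot be told apart.

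The genes called in both mutants were 4, all lower than in OEA8_Ctrl. Fst, which encodes the activin antagonist follistatin, fell to 0.421 times its OEA8_Ctrl mean in OEA8_69 and to 0.504 times in OEA8_67. Eng, which encodes the TGF-beta co-receptor endoglin, and the ligand genes Tgfb1 and Tgfb3 fell less. OEA8_69 differed from OEA8_Ctrl at 13 pathway genes, with 4 higher and 9 lower (limma on log2(FPKM + 1), adjusted p under 0.05 over all 12012 genes tested). That is 29.5% of the 44, against 9.79% of all genes tested. By direction, 4.55% of all genes were called higher and 5.24% lower. OEA8_67 differed at 4 pathway genes, all lower, which is 9.09% of the 44 and close to the 7.88% of all genes called in that comparison (3.21% higher and 4.66% lower). All 4 were among the 13 of OEA8_69, and the comparisons share their control libraries.

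The median log2 fold change of the 44 genes was 0.01 in OEA8_69 and 0.02 in OEA8_67, against 0.02 and 0.02 over all genes tested. The median absolute log2 fold change was 0.11 in OEA8_69 and 0.08 in OEA8_67, against 0.08 and 0.08 over all genes. Leaving out replicate 3 of OEA8_69 reduced the 13 calls to 8. Leaving out replicate 3 of OEA8_Ctrl raised them to 16.

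**Figure D1:**
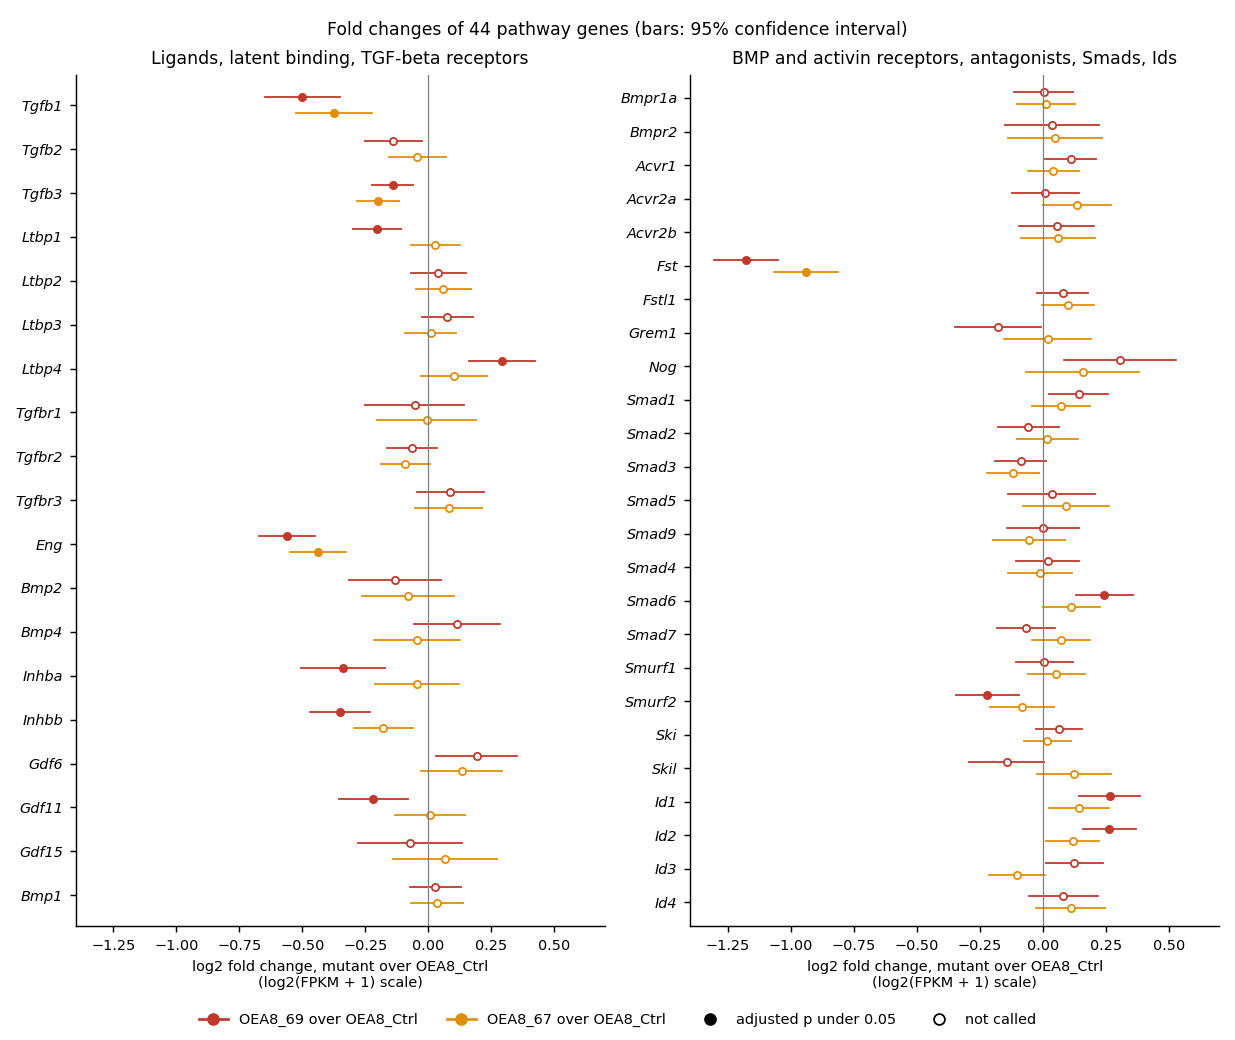
Log2 fold changes of the 44 tested pathway genes on the log2(FPKM + 1) scale, OEA8_69 over OEA8_Ctrl and OEA8_67 over OEA8_Ctrl, with 95% confidence intervals from limma (horizontal bars). Filled points passed an adjusted p of 0.05, and Fst stands farthest from 0 in both mutants.

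The members spanned a wide range of levels. The mean over the 9 libraries was at least 100 FPKM for 5 genes, at least 20 FPKM for 20, between 5 and 20 FPKM for 16, between 1 and 5 FPKM for 5 and under 1 FPKM for 4. The most abundant was Grem1, a secreted BMP antagonist, with a mean of 589 FPKM, followed by Fstl1 with 411 FPKM, Id3 with 244 FPKM, Ltbp2 with 175 FPKM and Ltbp3 with 115 FPKM. The 14 genes called in at least 1 of the 3 comparisons all averaged 5 FPKM or more.

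**Figure D2:**
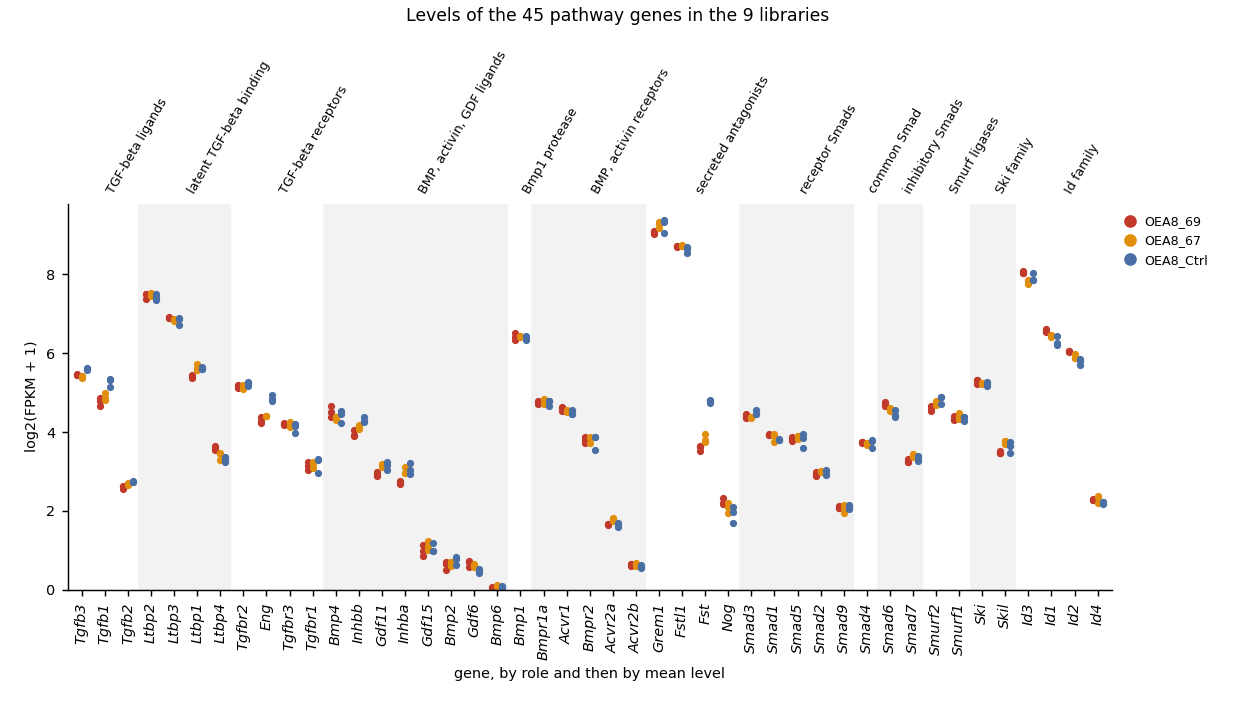
Levels of the 45 genes as log2(FPKM + 1), grouped by role and ordered by mean level, with 1 point per library (OEA8_69 left, OEA8_67 middle, OEA8_Ctrl right within each gene). Grem1 and Fstl1 lie highest and Bmp6 lowest. The OEA8_Ctrl libraries of Fst, Eng, Tgfb1, Tgfb2, Tgfb3 and Inhbb lie above all 6 mutant libraries, and those of Id2 and Gdf6 lie below all 6. How many of all genes separate in this way was not counted.

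Promoter sequences are shown for 3 called genes, Eng and Tgfb1, which were lower in both mutants, and Id2, a target of BMP Smads that was higher in OEA8_69. They were chosen after the values were seen, Eng and Tgfb1 for the largest fold changes among genes with an entry and Id2 for the largest rise among those with a single annotated start. The sequences are from RefSeq on GRCm38.p6, the assembly of the mm10 build named for the files, and 33 of the 45 genes and 11 of the 14 called genes had an entry. Each run gives the 250 bases before the annotated start, 5′ to 3′ on the gene's strand, at chr2:32646345-32646594 (plus strand) for Eng, chr7:25686752-25687001 (plus strand) for Tgfb1 and chr12:25096093-25096342 (minus strand) for Id2. Capitals mark matches to CAGAC, the core that Smads bind, or to the GC-rich Smad motif GGCGCC, on either strand, so that CAGAC also appears as GTCTG.
Eng: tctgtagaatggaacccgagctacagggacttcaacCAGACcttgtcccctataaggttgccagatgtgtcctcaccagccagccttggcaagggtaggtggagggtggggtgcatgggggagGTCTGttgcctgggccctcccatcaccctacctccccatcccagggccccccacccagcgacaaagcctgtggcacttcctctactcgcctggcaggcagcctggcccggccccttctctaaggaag
Tgfb1: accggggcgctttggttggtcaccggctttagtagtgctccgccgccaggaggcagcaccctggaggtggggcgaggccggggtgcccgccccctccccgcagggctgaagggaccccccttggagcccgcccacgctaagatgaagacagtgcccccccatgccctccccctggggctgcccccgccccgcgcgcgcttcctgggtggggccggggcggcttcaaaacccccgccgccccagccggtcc
Id2: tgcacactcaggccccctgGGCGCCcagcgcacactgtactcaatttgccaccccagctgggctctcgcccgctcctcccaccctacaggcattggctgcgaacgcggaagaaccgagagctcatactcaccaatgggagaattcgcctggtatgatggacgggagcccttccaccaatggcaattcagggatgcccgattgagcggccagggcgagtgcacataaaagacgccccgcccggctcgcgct
The Eng run held 2 CAGAC matches, with their first bases at -214 and -127 from the start. Id2 held a GGCGCC match at -231, and Tgfb1 held neither motif. In windows of 300 bases, which reach 50 bases past the start, CAGAC was found at 4 and GGCGCC at 3 of the 11 called genes with an entry. A gene was counted if any of its promoters matched, and Ltbp1 had 2 promoters and Ltbp4 had 3. Counted per promoter and not per gene, CAGAC was in 49.6% and GGCGCC in 11.9% of all 32851 promoters of this length. A gene with several promoters has more room for a match, so the counts and these shares are not on the same basis. A match is a run of letters and not a measured site.

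Tgfb1, the most studied of the TGF-beta ligands (gene 21803, chromosome 7, 25687002 to 25705077, GRCm38.p6), had 26.52, 24.52 and 28.00 FPKM in OEA8_69, 27.16, 30.96 and 28.39 FPKM in OEA8_67, against 38.71, 34.39 and 40.03 FPKM in OEA8_Ctrl. All 6 mutant libraries lay below the lowest control library, and those of the mutants overlapped each other. The log2 fold change was -0.50 ± 0.07 (SE) in OEA8_69 (limma adjusted p = 0.000634) and -0.37 ± 0.07 in OEA8_67 (adjusted p = 0.00613). Tgfb3 (gene 21809, chromosome 12, 86056743 to 86079041), which encodes another of the 3 ligands, had 42.40, 42.74 and 43.84 FPKM in OEA8_69, 41.99, 41.77 and 40.14 FPKM in OEA8_67, against 48.01, 46.88 and 47.75 FPKM in OEA8_Ctrl. Its groups did not overlap either, and the difference from the control was smaller than that of Tgfb1. For Tgfb3 the log2 fold change was -0.14 ± 0.04 in OEA8_69 (adjusted p = 0.0341) and -0.20 ± 0.04 in OEA8_67 (adjusted p = 0.00764). In OEA8_69 the call of Tgfb3 was lost in 9 of 18 alternatives. These included leaving out any replicate of OEA8_69 (adjusted p = 0.129, 0.103 and 0.064 without replicates 1, 2 and 3), replicate 1 or 2 of OEA8_67 (0.0573 and 0.0524) or replicate 1 of OEA8_Ctrl (0.104). Tgfb2 was much lower, between 4.87 and 5.71 FPKM, and was not called in any comparison. Its groups did not overlap, with OEA8_69 lowest and OEA8_Ctrl highest. In the limma test its log2 fold change was -0.14 in OEA8_69 (adjusted p = 0.121) and -0.04 in OEA8_67 (adjusted p = 0.638). The 3 ligands summed to 74.4 ± 2.49 FPKM in OEA8_69, 75.6 ± 2.15 FPKM in OEA8_67 and 90.9 ± 3.53 FPKM in OEA8_Ctrl.

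Of the 4 latent TGF-beta binding proteins, Ltbp1 and Ltbp4 differed in OEA8_69, in opposite directions. Ltbp1 (gene 268977, chromosome 17, 75005480 to 75392512), which tethers the latent complex to fibrillin in the matrix, had 41.57, 42.86 and 40.53 FPKM in OEA8_69, 51.74, 48.55 and 47.10 FPKM in OEA8_67, against 47.78, 49.09 and 47.58 FPKM in OEA8_Ctrl. The OEA8_69 libraries lay below all others, and those of OEA8_67 and OEA8_Ctrl overlapped. In the test its log2 fold change was -0.20 ± 0.04 in OEA8_69 (adjusted p = 0.0120) and 0.03 ± 0.04 in OEA8_67 (adjusted p = 0.739), and the call of OEA8_69 was lost without its replicate 3 (adjusted p = 0.0557). Ltbp4 (gene 108075, chromosome 7, 27305140 to 27339720), a family member that also takes part in elastic fibre assembly, had 10.69, 11.13 and 11.45 FPKM in OEA8_69, 8.83, 10.08 and 9.88 FPKM in OEA8_67, against 8.98, 8.38 and 9.26 FPKM in OEA8_Ctrl. It was highest in OEA8_69, with no overlap with either other group. Its log2 fold change was 0.29 ± 0.06 in OEA8_69 (adjusted p = 0.00940) and 0.10 ± 0.06 in OEA8_67 (adjusted p = 0.325). Ltbp2, which does not bind latent TGF-beta, averaged 175 FPKM over all libraries, with log2 fold changes of 0.04 in OEA8_69 (adjusted p = 0.685) and 0.06 in OEA8_67 (adjusted p = 0.491). Ltbp3, which does bind it, averaged 115 FPKM, with log2 fold changes of 0.08 (adjusted p = 0.348) and 0.01 (adjusted p = 0.923) in the same order.

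Among the TGF-beta receptors the co-receptor gene Eng differed and the signalling receptors were not called. Eng (gene 13805, chromosome 2, 32646595 to 32682669), whose product is known for its role in endothelial cells, had 18.47, 17.73 and 19.78 FPKM in OEA8_69, 20.42, 20.41 and 20.20 FPKM in OEA8_67, against 27.65, 26.76 and 29.47 FPKM in OEA8_Ctrl. Its 3 groups did not overlap. The log2 fold change was -0.56 ± 0.05 in OEA8_69 (adjusted p = 2.09e-05) and -0.44 ± 0.05 in OEA8_67 (adjusted p = 0.000227). Eng overlaps the neighbouring gene Fpgs by 61 bases, and the sources used here do not state whether reads were counted by strand.

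Endothelial markers moved with Eng. Of the 13 with values 4 averaged at least 1 FPKM and 6 were under 0.1 FPKM. Without Eng the other 12 summed to between 6.45 and 7.96 FPKM in OEA8_69, between 9.59 and 11.5 FPKM in OEA8_67 and between 62.7 and 63.5 FPKM in OEA8_Ctrl. Most of that sum was Erg, an ETS transcription factor gene, with a mean of 3.51 FPKM in OEA8_69, 6.35 FPKM in OEA8_67 and 42.8 FPKM in OEA8_Ctrl, while Pecam1, a defining endothelial gene, averaged 0.137, 0.107 and 0.643 FPKM in the same groups. The part of endothelial cells or of Erg in the level of Eng was not tested.

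Tgfbr2, the type II receptor gene, lay between 33.09 and 37.64 FPKM, with log2 fold changes of -0.07 in OEA8_69 (95% CI -0.16 to 0.03, adjusted p = 0.401) and -0.09 in OEA8_67 (95% CI -0.19 to 0.01, adjusted p = 0.240). Tgfbr1, the type I receptor gene, lay between 6.82 and 8.96 FPKM, and Tgfbr3, the gene of the co-receptor betaglycan, between 14.72 and 17.95 FPKM. Neither was called in any comparison.

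Of the other ligand genes, both activin subunits present in these libraries were lower in OEA8_69. Inhba (gene 16323, chromosome 13, 16004256 to 16031609), which encodes the subunit of activin A, had 5.73, 5.41 and 5.65 FPKM in OEA8_69, 7.73, 6.76 and 6.78 FPKM in OEA8_67, against 7.23, 8.27 and 6.59 FPKM in OEA8_Ctrl. The OEA8_69 libraries lay below the other 6, which overlapped. Against OEA8_Ctrl the log2 fold change was -0.34 ± 0.08 in OEA8_69 (adjusted p = 0.0156) and -0.05 ± 0.08 in OEA8_67 (adjusted p = 0.754), and without replicate 2 of OEA8_69 the call was lost (adjusted p = 0.0615). Inhbb (gene 16324, chromosome 1, 119415463 to 119422248), which encodes the subunit of activin B, had 13.96, 14.10 and 15.51 FPKM in OEA8_69, 16.99, 15.90 and 16.55 FPKM in OEA8_67, against 19.77, 18.47 and 18.11 FPKM in OEA8_Ctrl. No 2 of its groups overlapped, with OEA8_67 between the others. In the test its log2 fold change was -0.35 ± 0.05 in OEA8_69 (adjusted p = 0.00153) and -0.18 ± 0.05 in OEA8_67 (adjusted p = 0.0676, and 0.0488 with median-of-ratios scaling).

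Gdf11 (gene 14561, chromosome 10, 128880524 to 128891718), a ligand that signals through activin receptors, had 6.56, 6.40 and 6.92 FPKM in OEA8_69, 7.99, 7.61 and 8.15 FPKM in OEA8_67, against 8.49, 7.18 and 7.99 FPKM in OEA8_Ctrl. The OEA8_69 libraries were the 3 lowest, and the log2 fold change was -0.22 ± 0.06 in OEA8_69 (adjusted p = 0.0499) and 0.01 ± 0.06 in OEA8_67 (adjusted p = 0.957). The call in OEA8_69 stood at the threshold and was lost in 10 of 18 alternatives, among them leaving out any library except replicate 2 of OEA8_Ctrl (adjusted p between 0.0666 and 0.168). The BMP ligand gene Bmp4 averaged 20.6 FPKM, with log2 fold changes of 0.11 in OEA8_69 (adjusted p = 0.411) and -0.05 in OEA8_67 (adjusted p = 0.750). Bmp2, Gdf6 and Gdf15 lay between 0.35 and 1.36 FPKM and were not called. Bmp1, which despite its name encodes a protease that cleaves procollagen, averaged 84.5 FPKM, with log2 fold changes of 0.03 in OEA8_69 (adjusted p = 0.766) and 0.03 in OEA8_67 (adjusted p = 0.689).

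None of the 5 BMP and activin receptor genes was called in any of the 3 comparisons with limma. At an unadjusted limma p under 0.05 there was 1 of the 5 in OEA8_69 and 1 in OEA8_67. Over all 12012 genes tested there were 3017 in OEA8_69 and 2972 in OEA8_67. Bmpr1a, a BMP type I receptor gene, averaged 25.9 FPKM, and its log2 fold change was 0.00 in OEA8_69 (95% CI -0.11 to 0.12, adjusted p = 0.983) and 0.01 in OEA8_67 (95% CI -0.10 to 0.13, adjusted p = 0.910). Acvr1, another type I receptor gene, averaged 22.2 FPKM, with 0.11 in OEA8_69 (adjusted p = 0.160) and 0.04 in OEA8_67 (adjusted p = 0.610). The type II receptor gene Bmpr2 lay between 10.73 and 13.79 FPKM, and the activin type II receptor genes were low, Acvr2a between 2.01 and 2.51 FPKM and Acvr2b between 0.46 and 0.59 FPKM.

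Among the secreted antagonists Fst stood apart. Fst (gene 14313, chromosome 13, 114452262 to 114458989), whose product binds activins and blocks their receptor contact, had 11.40, 11.47 and 10.45 FPKM in OEA8_69, 12.54, 12.92 and 14.41 FPKM in OEA8_67, against 26.72, 26.91 and 25.51 FPKM in OEA8_Ctrl. The lowest control library was well above the highest mutant library, and the mutants did not overlap each other. Its log2 fold change was -1.18 ± 0.06 in OEA8_69 (adjusted p = 1.06e-07) and -0.94 ± 0.06 in OEA8_67 (adjusted p = 1.1e-06). Both calls were made in all 18 alternatives, with log2 fold changes between -1.24 and -1.14 in OEA8_69 and between -0.996 and -0.902 in OEA8_67.

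The other antagonists were not called. Grem1 had 549.59, 519.89 and 542.96 FPKM in OEA8_69, 625.98, 648.88 and 576.21 FPKM in OEA8_67, against 665.96, 640.12 and 527.50 FPKM in OEA8_Ctrl. The control libraries spread widely, and replicate 3 lay within the range of OEA8_69. The log2 fold change was -0.18 ± 0.08 in OEA8_69 (adjusted p = 0.185) and 0.02 ± 0.08 in OEA8_67 (adjusted p = 0.907), and without replicate 3 of OEA8_Ctrl Grem1 was called in OEA8_69 (-0.28, adjusted p = 0.00557). Fstl1, a secreted glycoprotein related to follistatin, averaged 411 FPKM, with log2 fold changes of 0.08 in OEA8_69 (adjusted p = 0.335) and 0.10 in OEA8_67 (adjusted p = 0.221). Nog, which encodes the BMP antagonist noggin, lay between 2.25 and 4.03 FPKM, with log2 fold changes of 0.30 in OEA8_69 (adjusted p = 0.0862) and 0.16 in OEA8_67 (adjusted p = 0.365). Without replicate 3 of OEA8_Ctrl, Nog was called in OEA8_69 (0.39, adjusted p = 0.0286).

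**Figure D3:**
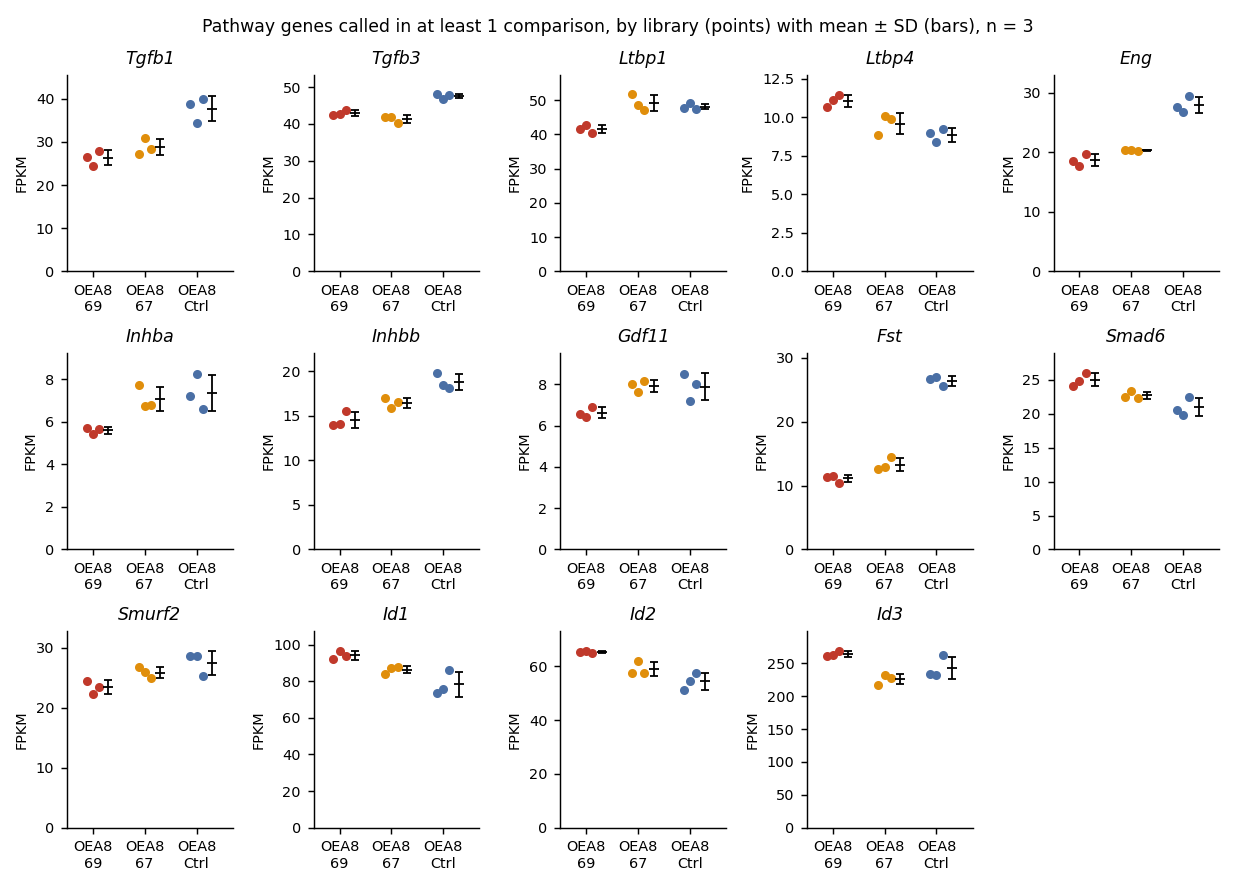
FPKM in each library of the 14 genes called in at least 1 comparison, with OEA8_69, OEA8_67 and OEA8_Ctrl from left to right in each panel and the mean ± SD of the 3 libraries as bars. Every axis starts at 0, and the Fst libraries lie between 10.45 and 14.41 FPKM in the mutants and between 25.51 and 26.91 FPKM in OEA8_Ctrl.

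None of the 5 receptor-activated Smads nor the common Smad was called in any comparison with limma. At an unadjusted limma p under 0.05 there was 1 receptor-activated Smad in OEA8_69 and 1 in OEA8_67. All 12012 genes tested gave 3017 in OEA8_69 and 2972 in OEA8_67. Smad3, which carries TGF-beta and activin signals, averaged 20.5 FPKM, with log2 fold changes of -0.09 in OEA8_69 (95% CI -0.19 to 0.01, adjusted p = 0.266) and -0.12 in OEA8_67 (95% CI -0.22 to -0.02, adjusted p = 0.141). Smad2 lay between 6.36 and 7.18 FPKM, Smad1 between 12.55 and 14.60 FPKM, Smad5 between 11.03 and 14.46 FPKM, Smad9 between 2.86 and 3.45 FPKM and Smad4 between 11.05 and 12.93 FPKM.

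Of the inhibitory Smads, Smad6 was called in OEA8_69. Smad6 (gene 17130, chromosome 9, 63953076 to 64022085), which mainly restrains BMP signals, had 24.10, 24.76 and 26.00 FPKM in OEA8_69, 22.51, 23.27 and 22.30 FPKM in OEA8_67, against 20.58, 19.85 and 22.44 FPKM in OEA8_Ctrl. OEA8_69 was highest, with no overlap, and the other groups overlapped. Against OEA8_Ctrl the log2 fold change was 0.24 ± 0.05 in OEA8_69 (adjusted p = 0.0114, and 0.0544 without its replicate 3) and 0.11 ± 0.05 in OEA8_67 (adjusted p = 0.208). Smad7, which restrains TGF-beta and BMP signals, lay between 8.51 and 9.85 FPKM and was not called.

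Smurf2 (gene 66313, chromosome 11, 106820061 to 106920747), a ubiquitin ligase for Smads and receptors, had 24.47, 22.21 and 23.50 FPKM in OEA8_69, 26.68, 25.95 and 24.85 FPKM in OEA8_67, against 28.52, 28.67 and 25.19 FPKM in OEA8_Ctrl. It was lowest in OEA8_69, with no overlap. In the test its log2 fold change was -0.22 ± 0.06 in OEA8_69 (adjusted p = 0.0312) and -0.08 ± 0.06 in OEA8_67 (adjusted p = 0.397). The call was lost in 7 of 18 alternatives, which included leaving out replicate 2 or 3 of OEA8_69 (adjusted p = 0.12 and 0.0798), replicate 2 of OEA8_67 (0.0501) or replicate 1 or 2 of OEA8_Ctrl (0.114 and 0.0943). Its paralog Smurf1 lay between 18.34 and 21.19 FPKM and was not called. Of the corepressor genes, Ski averaged 37.0 FPKM, with log2 fold changes of 0.06 in OEA8_69 (adjusted p = 0.393) and 0.02 in OEA8_67 (adjusted p = 0.836). Skil had 10.02, 10.01 and 10.43 FPKM in OEA8_69, 12.62, 11.94 and 12.70 FPKM in OEA8_67, against 11.49, 12.54 and 10.07 FPKM in OEA8_Ctrl, with a log2 fold change of -0.14 ± 0.07 in OEA8_69 (adjusted p = 0.210, and 0.0191 without replicate 3 of OEA8_Ctrl).

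The Id genes encode helix-loop-helix proteins that lack a DNA-binding region and hold back other transcription factors. Id1 and Id2 were higher in OEA8_69. Id1 (gene 15901, chromosome 2, 152736251 to 152737410) had 91.88, 96.44 and 93.84 FPKM in OEA8_69, 84.16, 87.02 and 87.96 FPKM in OEA8_67, against 73.33, 75.57 and 85.98 FPKM in OEA8_Ctrl. The OEA8_69 libraries were the 3 highest, and replicate 3 of OEA8_Ctrl reached the range of OEA8_67. Its log2 fold change was 0.26 ± 0.05 in OEA8_69 (adjusted p = 0.00994) and 0.14 ± 0.05 in OEA8_67 (adjusted p = 0.135). In OEA8_67 Id1 was called with quantile normalization (adjusted p = 0.0379) and without replicate 3 of OEA8_Ctrl (0.00681). Id2 (gene 15902, chromosome 12, 25093799 to 25096092) had 65.37, 65.70 and 64.84 FPKM in OEA8_69, 57.48, 61.87 and 57.58 FPKM in OEA8_67, against 51.18, 54.41 and 57.38 FPKM in OEA8_Ctrl. Its 3 groups did not overlap, although those of OEA8_67 and OEA8_Ctrl nearly met. The log2 fold change was 0.26 ± 0.05 in OEA8_69 (adjusted p = 0.00467) and 0.12 ± 0.05 in OEA8_67 (adjusted p = 0.159).

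Id3 (gene 15903, chromosome 4, 136143822 to 136145392) had 260.87, 263.04 and 269.65 FPKM in OEA8_69, 217.31, 232.36 and 227.85 FPKM in OEA8_67, against 233.28, 232.84 and 262.66 FPKM in OEA8_Ctrl. The lowest control library lay just above the highest of OEA8_67, and replicate 3 of OEA8_Ctrl lay within the range of OEA8_69. Against OEA8_Ctrl the log2 fold change was 0.12 ± 0.05 in OEA8_69 (adjusted p = 0.159, and 0.00942 without replicate 3 of OEA8_Ctrl) and -0.10 ± 0.05 in OEA8_67 (adjusted p = 0.244). Id4 was low, between 3.49 and 4.20 FPKM, and was not called.

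The mutants were also compared with each other, which asks whether the 2 residues have different effects. Of the 44 pathway genes 2 were called, which is 4.55%, against 3.16% of all genes tested (1.89% higher and 1.27% lower in OEA8_69). Ltbp1 was lower in OEA8_69 than in OEA8_67, with a log2 difference of -0.23 ± 0.04 (adjusted p = 0.0169). Id3 was higher in OEA8_69, with 0.23 ± 0.05 (adjusted p = 0.0389). Fst narrowly missed the threshold (-0.24 ± 0.06, adjusted p = 0.0501), as did Skil (-0.27 ± 0.07, adjusted p = 0.0579), Inhba (-0.29 ± 0.08, adjusted p = 0.0636) and Gdf11 (-0.23 ± 0.06, adjusted p = 0.0780). At an unadjusted p under 0.05 there were 15 of the 44, against 2247 of all 12012 genes tested. The count was sensitive to single libraries. Without replicate 1 or 3 of OEA8_69, or without replicate 1 or 2 of OEA8_67, it was 0. Without replicate 2 of OEA8_69 or replicate 3 of OEA8_67 it was 1. Leaving out replicate 2 of OEA8_Ctrl gave 5 and leaving out its replicate 3 gave 9, although controls enter this comparison only through the shared estimate of the spread. With only the 2 mutants in the model the count was 8, and Fst (adjusted p = 0.0431), Skil (0.0102), Inhba (0.0223) and Gdf11 (0.0296) were among them. Fst was also called with pseudocounts of 0.1 and 0.5 FPKM (0.0488 and 0.0491) and with the filter at 5 FPKM (0.0421). Which of these genes passed thus depended on the model, and a missed threshold does not show that the mutants were alike.

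Other genes of the pathway were read from a list of 57, of which 34 could be tested. In OEA8_69 1 was called higher and 2 lower, which is 8.82%, against 9.79% of all genes tested. In OEA8_67 1 was higher and 3 lower, which is 11.8%, against 7.88% of all genes, and between the mutants 2 were higher in OEA8_69, which is 5.88%, against 3.16%. The medians of their log2 fold changes were 0.05, 0.0033 and 0.02 in these 3 comparisons. Acvrl1, which encodes the type I receptor that pairs with endoglin in endothelial cells, had 0.52, 0.86 and 0.86 FPKM in OEA8_69, 0.81, 0.87 and 0.78 FPKM in OEA8_67, against 1.48, 1.51 and 1.51 FPKM in OEA8_Ctrl. It was lower in both mutants, with log2 fold changes of -0.52 ± 0.08 (adjusted p = 0.00212) in OEA8_69 and -0.46 ± 0.08 (adjusted p = 0.00671) in OEA8_67. The endothelial markers given beside Eng moved in the same direction, and their part in the level of Acvrl1 was not tested. Nbl1, a BMP antagonist gene of the DAN family, averaged 96.6 FPKM in OEA8_69, 80.9 FPKM in OEA8_67 and 92.5 FPKM in OEA8_Ctrl, and was called in OEA8_67 (-0.19, adjusted p = 0.0246) and between the mutants (0.25, adjusted p = 0.0117). Gdf10, a low ligand gene, averaged 0.673 FPKM in OEA8_69, 0.287 FPKM in OEA8_67 and 0.617 FPKM in OEA8_Ctrl, with the same pattern (-0.33 in OEA8_67, adjusted p = 0.0155, and 0.38 between the mutants, adjusted p = 0.0159). Gdf10 passed the filter of 0.5 FPKM through OEA8_69 and OEA8_Ctrl, while its OEA8_67 mean lay under it. The shares called in OEA8_67 and between the mutants thus include a gene let in by the groups where it was higher. With the filter at 5 FPKM, which leaves out Gdf10 and other low genes, 2 of 22 were called in OEA8_67, against 679 of all 8737 genes. Between the mutants 1 of 22 was called with that filter, against 339 of 8737. Strap, which encodes a receptor-associated protein, was higher in OEA8_67 (0.16, adjusted p = 0.0306), and Fkbp1a, which encodes the type I receptor binding protein FKBP12, was lower in OEA8_69 (-0.17, adjusted p = 0.0412). Rgma, which encodes a BMP co-receptor of the repulsive guidance family, was higher in OEA8_69 (0.17, adjusted p = 0.0431), with 15.0 ± 0.479 FPKM in OEA8_69, 14.4 ± 0.276 FPKM in OEA8_67 and 13.2 ± 0.557 FPKM in OEA8_Ctrl, and the call was lost without any library but replicate 3 of OEA8_Ctrl (adjusted p between 0.0651 and 0.152). The call of Fkbp1a was lost without any mutant library or replicate 1 of OEA8_Ctrl (adjusted p between 0.0633 and 0.134), and that of Strap without replicate 1 of OEA8_69, any replicate of OEA8_67 or replicate 1 of OEA8_Ctrl (between 0.0517 and 0.11). In OEA8_67 the call of Nbl1 was lost without its replicate 2 or 3 or replicate 1 of OEA8_Ctrl (between 0.0741 and 0.0964), and that of Gdf10 without its replicate 1 or 2 or replicate 1 of OEA8_Ctrl (between 0.0562 and 0.0677). Between the mutants Nbl1 was lost when replicate 1 or 2 was left out of OEA8_69, or replicate 2 or 3 out of OEA8_67 (between 0.058 and 0.0645), and Gdf10 without any of the mutant libraries but replicate 3 of OEA8_67 (between 0.0517 and 0.0715). The counts in OEA8_69 were 2 when its replicate 2 was left out, 1 when any other mutant library or replicate 1 of OEA8_Ctrl was and 6 when replicate 3 of OEA8_Ctrl was. In OEA8_67 they were 2, 1 and 2 without its replicates 1, 2 and 3 and 1 without replicate 1 of OEA8_Ctrl. Between the mutants the count was 0 when replicate 1 or 2 was left out of OEA8_69 or replicate 2 out of OEA8_67. It was 1 when replicate 3 was left out of OEA8_69 or replicate 1 or 3 out of OEA8_67, and 5 when replicate 3 was left out of OEA8_Ctrl.

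Genes known as TGF-beta targets in fibroblasts moved in both directions. Of 25 tested, 5 were called higher and 8 lower in OEA8_69, which is 52% of them, against 9.79% of all genes tested, and 3 higher and 7 lower in OEA8_67, which is 40% of them, against 7.88% of all genes. Between the mutants 4 were higher and 2 lower in OEA8_69, which is 24% of them, against 3.16% of all genes. That balance turned with quantile normalization, to 2 higher and 6 lower, and it was 4 higher and 5 lower with only the 2 compared groups in the model or without replicate 3 of OEA8_Ctrl. The medians of their log2 fold changes were -0.05, -0.02 and 0.01 in these 3 comparisons. The list shares Col1a1, Col1a2, Col3a1 and Postn with the fibroblast markers. The 14 fibroblast markers summed to 6658 to 6844 FPKM in OEA8_69, 6272 to 6492 FPKM in OEA8_67 and 6732 to 7076 FPKM in OEA8_Ctrl. Of the 13 tested, 3 were called lower in OEA8_69, which is 23.1%, against 5.24% of all genes. In OEA8_67 5 were called lower, which is 38.5%, against 4.66% of all genes. Higher in OEA8_69 than in OEA8_67 were 4, which is 30.8%, against 1.89% of all genes. The part of these markers in the targets was not tested.

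Tgfbi, a matrix protein gene named for its induction by TGF-beta, was higher in both mutants, with a mean of 137 ± 1.73 FPKM in OEA8_69, 103 ± 2.75 FPKM in OEA8_67 and 92.0 ± 1.80 FPKM in OEA8_Ctrl (log2 fold changes 0.57, adjusted p = 1.39e-06, and 0.16, adjusted p = 0.0244). In OEA8_67 that call was lost without its replicate 1 or 3 (adjusted p = 0.1 and 0.0908) or replicate 2 of OEA8_Ctrl (0.0516). Postn, which encodes the matrix protein periostin, averaged 255 ± 3.91 FPKM in OEA8_69, 222 ± 3.12 FPKM in OEA8_67 and 305 ± 9.49 FPKM in OEA8_Ctrl (-0.26, adjusted p = 0.00145, and -0.46, adjusted p = 1.86e-05). Ccn2, which encodes connective tissue growth factor, was called against OEA8_Ctrl in OEA8_69 (-0.27, adjusted p = 0.000801) and not in OEA8_67 (-0.01, adjusted p = 0.924), with 123 ± 1.35 FPKM in OEA8_69, 148 ± 4.66 FPKM in OEA8_67 and 149 ± 2.94 FPKM in OEA8_Ctrl, and the difference between the mutants was itself called (-0.27, adjusted p = 0.00395).

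Timp1, a metalloproteinase inhibitor gene, averaged 591 ± 17.8 FPKM in OEA8_69, 659 ± 8.09 FPKM in OEA8_67 and 760 ± 47.3 FPKM in OEA8_Ctrl (-0.36, adjusted p = 0.000898, and -0.20, adjusted p = 0.0340). Itga11, a collagen receptor gene, averaged 2.60 ± 0.127 FPKM in OEA8_69, 1.60 ± 0.0321 FPKM in OEA8_67 and 2.74 ± 0.332 FPKM in OEA8_Ctrl, and was called in OEA8_67 (-0.52, adjusted p = 0.00114) and between the mutants (0.47, adjusted p = 0.00576). The contractile genes did not move together. Cnn1, which encodes calponin, had 9.07, 8.85 and 8.86 FPKM in OEA8_69, 11.83, 13.09 and 13.84 FPKM in OEA8_67, against 10.02, 9.75 and 10.89 FPKM in OEA8_Ctrl. Its OEA8_69 libraries were the 3 lowest and its OEA8_67 libraries the 3 highest. It was called in OEA8_67 (0.31, adjusted p = 0.0104, and 0.0519 without replicate 3 of that group) and between the mutants (-0.49 ± 0.06, adjusted p = 0.00202), and not in OEA8_69 (-0.18, adjusted p = 0.102). Acta2, which encodes smooth muscle actin, averaged 1454 ± 59.5 FPKM in OEA8_69, 1551 ± 57.5 FPKM in OEA8_67 and 1400 ± 141 FPKM in OEA8_Ctrl and was not called (0.06, adjusted p = 0.668, and 0.15, adjusted p = 0.210). Tagln, which encodes transgelin, averaged 298 ± 14.9 FPKM in OEA8_69, 298 ± 7.47 FPKM in OEA8_67 and 352 ± 32.1 FPKM in OEA8_Ctrl (-0.23, adjusted p = 0.0353, and -0.23, adjusted p = 0.0427), and the calls of Tagln were lost in 10 of 18 alternatives in OEA8_69 and in 11 of 18 in OEA8_67. In OEA8_69 Tagln was lost without its replicate 1 or 3, any replicate of OEA8_67 or replicate 1 of OEA8_Ctrl (adjusted p between 0.0503 and 0.133), and in OEA8_67 without any library but replicate 2 of OEA8_69 and replicate 2 of OEA8_Ctrl (between 0.0593 and 0.145). In OEA8_67 the call of Timp1 was lost without replicate 1 or 3 of OEA8_69, any replicate of OEA8_67 or replicate 1 of OEA8_Ctrl (between 0.051 and 0.116). Acta2 was called in OEA8_67 without replicate 3 of OEA8_Ctrl (0.0224) and with quantile normalization (0.0371). Without replicate 3 of OEA8_69 the count of targets called in OEA8_69 was 8. In OEA8_67 it was 6, 6 and 5 without its replicates 1, 2 and 3 and 6 without replicate 1 of OEA8_Ctrl.

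**Figure D4:**
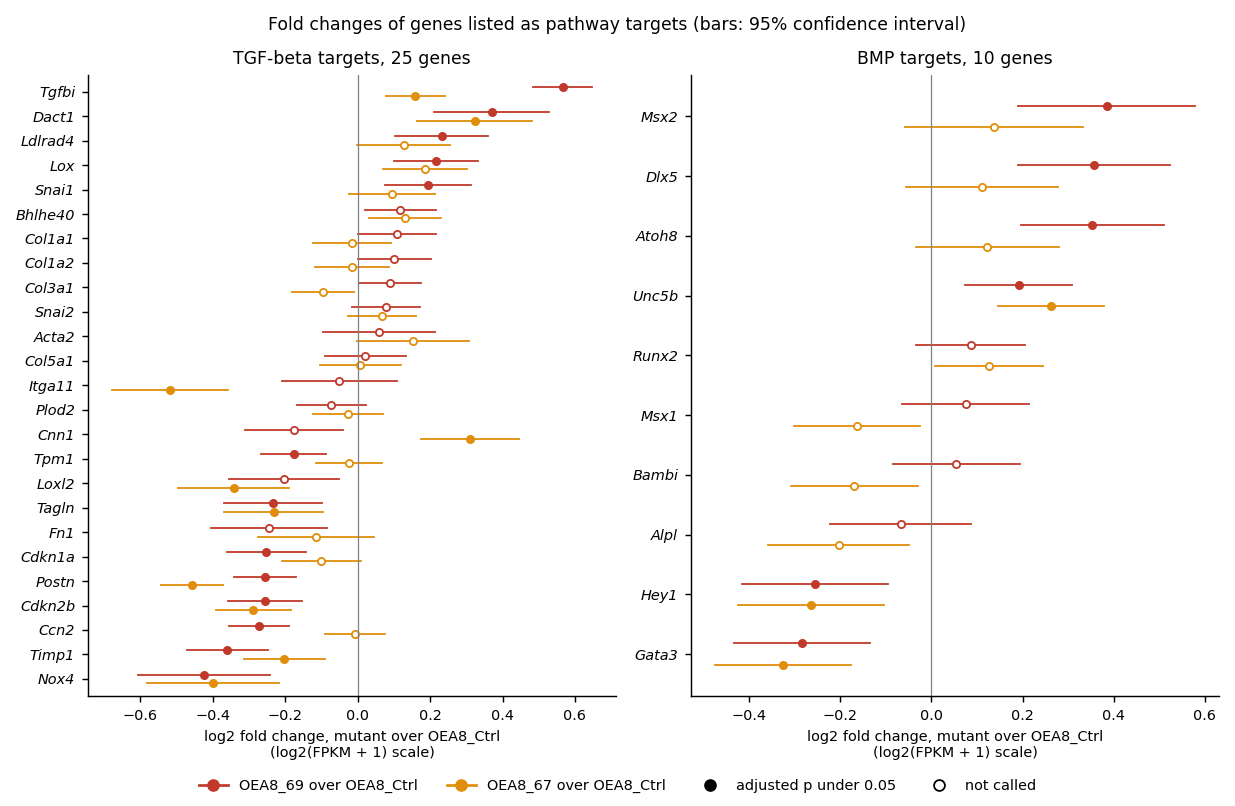
Log2 fold changes on the log2(FPKM + 1) scale with 95% confidence intervals for 25 tested TGF-beta targets (left) and 10 tested BMP targets (right), OEA8_69 over OEA8_Ctrl and OEA8_67 over OEA8_Ctrl, ordered by OEA8_69. Tgfbi is highest among the TGF-beta targets in OEA8_69, at 0.57, and Itga11 is lowest in OEA8_67, at -0.52.

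Of 10 tested BMP targets, 4 were called higher and 2 lower in OEA8_69, which is 60% of them, against 9.79% of all genes tested, and 1 higher and 2 lower in OEA8_67, which is 30% of them, against 7.88% of all genes. The medians of their log2 fold changes were 0.08 and -0.03. Of 6 osteoblast markers 2 averaged at least 1 FPKM, and the 6 summed to 741 to 765 FPKM in OEA8_69, 788 to 843 FPKM in OEA8_67 and 1040 to 1053 FPKM in OEA8_Ctrl. Nearly all of that sum came from those 2 genes. The mean of log2(FPKM + 1) over the 6 was 2.38 to 2.42, 2.34 to 2.43 and 2.42 to 2.47 in the same order. Of 3 tested 1 was called lower in OEA8_69 and 1 in OEA8_67, against 5.24% and 4.66% of all genes. Of 6 chondrocyte markers 1 reached 1 FPKM, and their sum was 13.6 to 14.7 FPKM in OEA8_69, 10.8 to 11.8 FPKM in OEA8_67 and 6.92 to 7.80 FPKM in OEA8_Ctrl. The part of such cells in the BMP targets was not tested. Between the mutants limma called 0, against 3.16% of all genes tested. At an unadjusted limma p under 0.05 there were 5 of the 10, against 2247 of all 12012 genes. Atoh8, a helix-loop-helix factor gene that BMP induces, had 67.79, 64.22 and 71.30 FPKM in OEA8_69, 55.81, 59.07 and 57.88 FPKM in OEA8_67, against 52.79, 46.94 and 59.32 FPKM in OEA8_Ctrl. OEA8_69 was highest, with no overlap, and the log2 fold change was 0.35 ± 0.07 in OEA8_69 (adjusted p = 0.00847) and 0.12 ± 0.07 in OEA8_67 (adjusted p = 0.311). The homeobox genes Msx2 (0.38, adjusted p = 0.0177) and Dlx5 (0.36, adjusted p = 0.0118) were higher in OEA8_69 too, at low levels of 2.82 ± 0.164 and 1.39 ± 0.153 FPKM in OEA8_69, against 1.94 ± 0.357 and 0.863 ± 0.0924 FPKM in OEA8_Ctrl. Msx2 was lost without replicate 2 or 3 of OEA8_69 (adjusted p = 0.0689 and 0.0587) and Dlx5 without its replicate 1 (0.0574). Unc5b, a netrin receptor gene, was higher in OEA8_69 (0.19, adjusted p = 0.0431) and in OEA8_67 (0.26, adjusted p = 0.0117), and its call in OEA8_69 was lost in 14 of 18 alternatives, which include leaving out any library but replicate 2 of OEA8_Ctrl (adjusted p between 0.0562 and 0.157). In OEA8_67 it was lost without replicate 2 of that group (0.0625). Gata3, a zinc finger factor gene, was lower in OEA8_69 (-0.28, adjusted p = 0.0211) and in OEA8_67 (-0.33, adjusted p = 0.0136), and averaged 1.65 ± 0.151 FPKM in OEA8_69, 1.57 ± 0.0954 FPKM in OEA8_67 and 2.22 ± 0.0954 FPKM in OEA8_Ctrl. Its calls were lost without replicate 1 or 2 of OEA8_69 in that group (adjusted p = 0.0826 and 0.081), without replicate 1 or 3 of OEA8_67 in that group (0.0558 and 0.0506), and in both without replicate 1 of OEA8_Ctrl (0.0805 in OEA8_69 and 0.054 in OEA8_67). Hey1, a Notch and BMP target that encodes a repressor, averaged 1.03 FPKM in OEA8_69, 1.02 FPKM in OEA8_67 and 1.43 FPKM in OEA8_Ctrl (-0.26, adjusted p = 0.0479, and -0.26, adjusted p = 0.0490), and both calls were lost without any library but replicate 1 of OEA8_Ctrl (adjusted p between 0.0574 and 0.143 in OEA8_69 and between 0.0648 and 0.156 in OEA8_67). Bambi, which encodes a decoy receptor, averaged 6.30 FPKM in OEA8_69, 5.25 FPKM in OEA8_67 and 6.03 FPKM in OEA8_Ctrl and was not called (0.05, adjusted p = 0.651, and -0.17, adjusted p = 0.130). In OEA8_69 the count of targets called was 2, 2 and 3 without replicates 1, 2 and 3 of that group, and in OEA8_67 it was 1 without any 1 of its replicates. Each of the 18 alternatives called fewer than 6 in OEA8_69. With quantile normalization, only the 2 compared groups or the replicate block 4 were called there, and with the filter at 5 FPKM 2 of 5 tested. Between the mutants the count was 2 and 3 when replicate 2 or replicate 3 of OEA8_Ctrl was left out.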

How the data were processed

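Transcript levels in 9 mouse RNA-seq libraries were analysed, with groups and replicate numbers as labelled. The cells' RNA was purified with TRIzol and sequenced on the DNBSEQ platform, and adapter, poly-N and low-quality reads were discarded before alignment. Bowtie2 2.2.5, HISAT2 2.0.4 and mm10 are named in the submitters' processing notes, and RSEM, whose version is not given, in the study. The deposited values are FPKM that the authors computed per gene and rounded to 2 decimals. Because FPKM are relative, abundant genes that rise push other genes down. The authors' group means served only to check the columns. Whole reads could not be recovered from the low values of 623 short genes, so that depth and counting error are unknown and no count model was used.

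The 12012 genes averaging 0.5 FPKM or more were fitted on log2(FPKM + 1), a scale that understates the change of low genes, in 1 limma 3.58.1 model of the 9 libraries (R 4.3.3, eBayes with trend). Two-sided p-values were adjusted by Benjamini-Hochberg over all genes tested, and an adjusted p under 0.05 was called. For bulk RNA-seq the study's methods name no tool for differential expression. Their general test between groups is an unpaired t-test, in place of which the fit across all genes was used. The 45 genes, the other lists and the rule for named genes were chosen with earlier results of these data known. All called members were named with their libraries, uncalled members with a mean of at least 20 FPKM or an adjusted p up to 0.1 got fold changes, and up to 6 called genes of each further list were named by smallest adjusted p, plus the fixed targets Ccn2, Acta2, Tagln, Bambi and Atoh8. Some listed genes are not reported here and were left out of the lists, their counts and the plots. Positions and promoters come from RefSeq tables of GRCm38.p6. The alternatives changed the pseudocount (0.1 or 0.5 FPKM), the filter (none, or 5 FPKM), the scaling (median of ratios, or quantile) and the model (compared groups only, no trend, or a replicate block), or left out 1 library at a time. The fit was tested on simulated data. Figures were drawn in Python 3.11.15 with matplotlib 3.10.9.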

Additional observations from a re-analysis of the deposited data

Results flagged for a closer look

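The pathway genes whose levels differed between the mutants by the test of the difference itself were Ltbp1 and Id3. Ltbp1 differed by -0.23 on the log2 scale (OEA8_69 minus OEA8_67, limma adjusted p = 0.0169), with means of 41.7 ± 1.17 FPKM in OEA8_69 and 49.1 ± 2.37 FPKM in OEA8_67 (SD, n = 3 each) and no overlap between the groups. The call was lost without replicate 1 or 3 of OEA8_69 (adjusted p = 0.0755 and 0.0784) and without replicate 1 or 2 of OEA8_67 (0.0789 and 0.0616). Id3 differed by 0.23 (adjusted p = 0.0389), with means of 265 ± 4.57 FPKM in OEA8_69 and 226 ± 7.72 FPKM in OEA8_67, again with no overlap. The call of Id3 was lost without any single library of either mutant (adjusted p between 0.0912 and 0.147), with no filter (0.0809) and with no trend (0.0671).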

How the results depend on the processing

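The 4 calls in OEA8_67 (Fst, Eng, Tgfb1 and Tgfb3) and 7 of the 13 in OEA8_69 (Fst, Eng, Tgfb1, Inhbb, Ltbp4, Id1 and Id2) were made in all 18 alternatives, and no called member changed sign. Leaving out single libraries gave 8 to 16 called members in OEA8_69, 4 to 5 in OEA8_67 and 0 to 9 between the mutants. Between the mutants the count was 1 with no filter, 4 with the filter at 5 FPKM, 8 with only the 2 compared groups and 1 with no trend. Whether same-numbered libraries were prepared together is stated neither in the labels nor in the study. Deviations of same-numbered libraries from their group means correlated between -0.25 and 0.15, which cannot decide it. With the replicate block 12, 4 and 2 members were called in OEA8_69, OEA8_67 and between the mutants. Over all genes OEA8_69 had 1176 calls, which became 751 when its replicate 1 was left out and 1787 when replicate 3 of the control was. OEA8_67 had 946, which became 607 with only the 2 compared groups, 608, 463 or 514 when its own replicate 1, 2 or 3 was left out and 579 when replicate 1 of the control was. Between the mutants they were 210 with no filter, 976 with only the 2 compared groups, 242 with the replicate block, 123 to 178 without a mutant library and 1037 without replicate 3 of OEA8_Ctrl, against 379. The causes were not tested. Uncalled values near 0 changed sign. With median-of-ratios scaling these were Ltbp3 (-0.00939), Gdf11 (-0.00989), Bmpr1a (-0.00581) and Ski (-0.00145) in OEA8_67 and Bmpr1a (-0.013) in OEA8_69, and with quantile normalization Gdf11 (-0.0116) and Ccn2 (0.0435) in OEA8_67 and Acta2 (-0.0247) in OEA8_69. Leaving out single libraries gave ranges across 0 in OEA8_67 for Ltbp1 (-0.0096 to 0.0568), Ltbp3 (-0.0422 to 0.0399), Bmp4 (-0.129 to 0.015), Inhba (-0.113 to 0.0314), Gdf11 (-0.0513 to 0.0558), Bmpr1a (-0.0344 to 0.0387), Grem1 (-0.0832 to 0.0846), Ski (-0.00818 to 0.0391) and Ccn2 (-0.032 to 0.0124), and in OEA8_69 for Bmp1 (-0.012 to 0.0665), Bmpr1a (-0.0445 to 0.0286), Itga11 (-0.111 to 0.0159) and Acta2 (-0.00665 to 0.136). With 3 libraries a group and unknown depth, small changes of low genes such as Bmp2, Gdf6 and Acvr2b cannot be resolved.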

Other observations

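The balance of activin subunits and their antagonist was computed after their values were seen and is given as a description. The summed FPKM of Inhba and Inhbb was 1.70 to 2.02 times that of Fst in the OEA8_69 libraries and 1.62 to 1.97 times in those of OEA8_67, against 0.968 to 1.01 times in those of OEA8_Ctrl. The activin subunits themselves summed to 20.1 ± 0.905 FPKM in OEA8_69, 23.6 ± 1.05 FPKM in OEA8_67 and 26.1 ± 1.26 FPKM in OEA8_Ctrl (SD, n = 3 each). The subunit sums of OEA8_67 overlapped those of OEA8_Ctrl, and neither subunit was called in OEA8_67, except Inhbb with median-of-ratios scaling (limma adjusted p = 0.0488). Tgfb1 made up 35.4% ± 1.24 of the summed TGF-beta ligand FPKM in OEA8_69, 38.1% ± 1.67 in OEA8_67 and 41.4% ± 1.67 in OEA8_Ctrl. The 4 Id genes summed to 428 ± 5.24 FPKM in OEA8_69, 375 ± 11.6 FPKM in OEA8_67 and 379 ± 26.6 FPKM in OEA8_Ctrl, a sum that Id3 dominates.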
